A study of Arabidopsis thaliana with 18 samples.

Results

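The introns described here are annotated Arabidopsis thaliana introns of 81 to 120 bases. They are called constitutive because no other annotated junction of the same gene uses either of their splice sites. They were taken from 127555 annotated splice junctions as those at loci of a single gene that had 20 or more reads summed over the 18 libraries. This gave 45764 introns in 11374 genes, which was 35.9% of the annotated junctions and 52.1% of the 87772 constitutive introns with 20 or more reads. At 619 of them an annotated stretch of exon covers exactly the intron, so the annotation also holds these introns retained. Length, annotation and total reads chose the 45764 introns, and no difference between genotypes was used.

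Whole seedlings of 6 genotypes, with 3 independent biological replicates each, were sequenced with PacBio Iso-Seq, whose long reads often span a transcript from end to end. Col-0 is the wild type, xct-1 and xct-2 are alleles of XCT, and prl1-2 is an allele of PRL1. The other groups are xct-2 with an XCT::XCT transgene, which a file header names XCT-YFP-HA, and xct-1 with the transgene XCT::SpXAP5. The labels do not say how many independent transgenic lines these stand for, nor how many plants were pooled. All groups were kept in constant light at 22 °C, and tissue taken every 2 h across 24 h was pooled, so each library is an average over the day. The age is given as 10 days by a label and as day 11 by a protocol, and the difference could not be settled.

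Introns are removed by the spliceosome, which recognises the 5′ splice site, the branch point and the 3′ splice site and joins the flanking exons in a pair of cutting and joining steps. Plant introns are mostly short and rich in U and A, and when splicing fails the usual outcome is that the intron stays in the transcript. XCT, XAP5 CIRCADIAN TIMEKEEPER, is a nuclear protein of the conserved XAP5 family, known in Arabidopsis for its part in the circadian clock and in light responses. SpXAP5 is the member of that family in the fission yeast Schizosaccharomyces pombe. PRL1 is a WD-repeat protein of the MOS4-associated complex, the plant counterpart of the Prp19 complex that helps to activate the spliceosome.

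Depth ran from 459150 to 1046273 gene reads per library, and a library held between 7.05 and 11.5 junction reads per gene read. The prl1-2 libraries had the lowest mean depth, 629298 gene reads (459150 to 740015). Col-0 had 822897 (702992 to 913488) and xct-2 879745 (855070 to 917839). Col-0 replicates held 33, 26 and 10 reads of PRL1, and each prl1-2 library held 0. For XCT the counts were 8, 16 and 2 in Col-0, 4, 8 and 4 in xct-2, and 654, 284 and 334 in the XCT::XCT line, so the introns of XCT itself were thinly covered outside that line. All 5 leaf marker transcripts and the root transcript PYK10 were found in 18 of 18 libraries, and the root endodermis gene CASP1 in 14.

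The introns had a median length of 92 bases, with quartiles of 86 and 101, and 86 bases was the most frequent length with 2144 introns. Their median number of reads was 423, with quartiles of 127 and 1484 and a maximum of 182761. A gene held a median of 3 such introns, 2600 genes held 1, and AT1G02080 held 30. Together they carried 51.4% of all reads on annotated junctions.

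A measure of splicing was taken against each of 2 denominators. Usage is the reads on the junction as a percent of all reads of the gene, capped at 100%, and it also counts reads that never reach the intron. The unspliced share is the percent of reads in the upstream exon bin, the counted stretch of exon that ends at the intron's 5′ splice site, that do not carry the junction. Such a read may retain the intron, use another site or end in between. Junction counts exceeded the gene count in 6.02% of the values and the upstream bin in 6.72%, by a median of 2 reads in either case. The introns at the ends of the length range were set beside their neighbours outside it. In unspliced share the Col-0 libraries did not overlap at either end, while the prl1-2 libraries did. In Col-0 the unspliced share was 2.03% at 80 bases (1618 introns) and 1.68% at 81 bases (1733 introns), and in prl1-2 these shares were 4.85% and 4.47%. At 120 bases (312 introns) it was 2.40% in Col-0 and 5.02% in prl1-2, against 1.92% and 4.66% in the 336 introns that were 1 base longer. At the read minimum, pooled Col-0 usage was 67.9% ± 3.16 (SD, n = 3) over the 138 introns of exactly 20 reads. It was 35.8% ± 8.35 over the 163 left out with 19 reads. Pooled usage sums gene reads, so in such small sets the genes with many reads weigh most. It is another measure than the share given for the length ends, and why the sets differed was not tested.

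Pooled over all 45764 introns, nearly all transcripts were spliced in every genotype, and prl1-2 stood furthest from Col-0. Usage was 95.6%, 94.6% and 95.9% in the Col-0 libraries, and 93.3%, 93.6% and 92.5% in the prl1-2 libraries, which all lay below every other library. The xct-1 values of 95.2%, 94.7% and 95.4% and the xct-2 values of 95.0%, 94.4% and 95.4% overlapped those of Col-0, as did both transgenic lines, with means of 95.4% ± 0.296 in the XCT::XCT line and 95.5% ± 0.245 in the XCT::SpXAP5 line (SD, n = 3).

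The unspliced share separated the genotypes more finely. It was 1.95%, 1.94% and 1.99% in Col-0 and 4.55%, 4.10% and 4.64% in prl1-2, a ratio of the means of 2.26. In xct-2 it was 2.66%, 2.57% and 2.48%, and in xct-1 2.32%, 2.19% and 2.30%, so that all libraries of both alleles lay above Col-0 and xct-2 above xct-1. The XCT::XCT line had 2.09%, 2.03% and 2.01%, just above the highest Col-0 library and below every xct-2 library. The XCT::SpXAP5 line had 2.35%, 2.21% and 2.29%, which overlapped xct-1, with replicate 1 above all 3 xct-1 libraries. In whole seedlings, a shift in which cells make a transcript and a shift in splicing within a cell cannot be told apart, nor can fewer cells of a type and less RNA per cell.

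**Figure D1:**
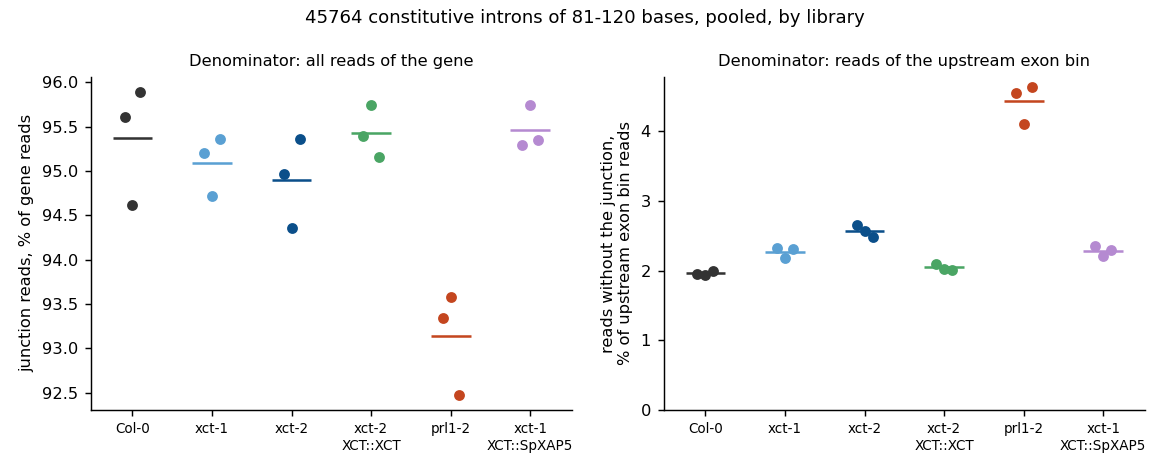
Splicing of the 45764 introns in each of the 18 libraries: junction reads as a percent of gene reads (left, axis not from 0) and reads without the junction as a percent of upstream exon bin reads (right). Points are libraries and short lines are means of 3. The prl1-2 libraries are lowest on the left, at 92.5% to 93.6%, and highest on the right, at 4.10% to 4.64%; on the right xct-2 lies at 2.48% to 2.66%, between Col-0 and prl1-2.

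The longest introns of the range had a larger mean unspliced share than the shortest in every genotype. In Col-0 it was 1.80% ± 0.0675 at 81 to 90 bases (19943 introns) and 2.41% ± 0.0896 at 111 to 120 bases (4449 introns). In prl1-2 it was 4.32% ± 0.308 and 5.09% ± 0.199, so the ratio to Col-0 was 2.40 for the shortest and 2.11 for the longest. In xct-2 the values were 2.46% ± 0.0746 and 3.11% ± 0.235 (SD, n = 3).

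Unspliced shares differed more between places in the gene than between lengths. Places were numbered along the constitutive introns of a gene from its 5′ end. The 34870 inner introns had an unspliced share of 1.70% in Col-0, 2.30% in xct-2 and 4.01% in prl1-2. The 3795 introns that come first had 3.62%, 4.41% and 6.78%. The 6667 that come last had 3.07%, 3.67% and 6.31%, and the 432 that are the sole constitutive intron of their gene had 5.74%, 7.20% and 10.7%. In each of these classes all 3 prl1-2 libraries lay above all 3 Col-0 libraries. The 11441 introns with the fewest junction reads had 13.3% ± 4.70 in Col-0 and 18.1% ± 3.40 in prl1-2, and these ranges overlapped. The 11441 with the most junction reads had 1.48% ± 0.0440 and 3.33% ± 0.274. Junction reads also enter the unspliced share, and an intron spliced less has fewer of them, so part of this contrast was set by the grouping.

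**Figure D2:**
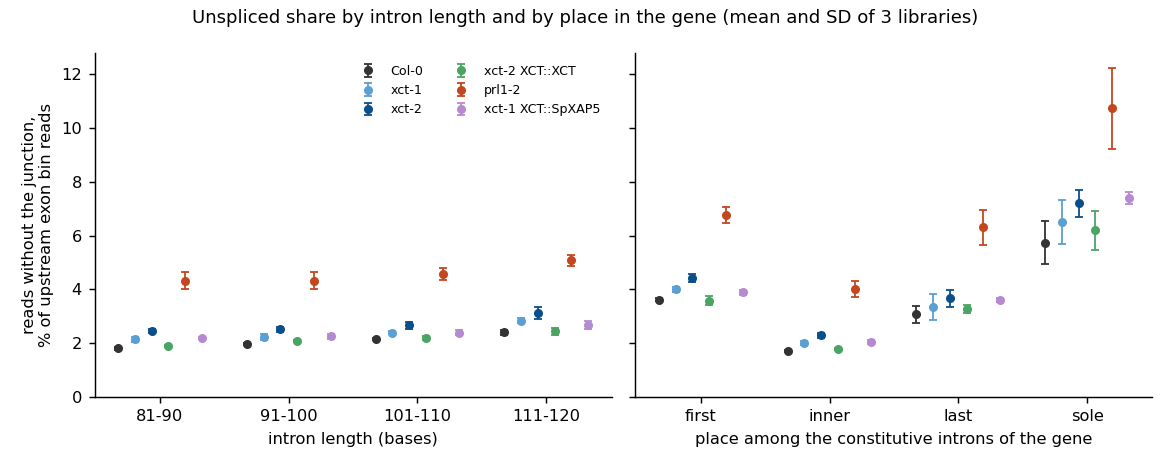
Reads without the junction as a percent of upstream exon bin reads, by intron length in bases (left) and by place among the constitutive introns of the gene (right), for 6 genotypes. Points are means and bars SDs of 3 libraries. The prl1-2 values lie highest in every class, from 4.32% at 81 to 90 bases to 10.7% in sole introns, and inner introns have the lowest shares in each genotype.

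Constitutive introns of the other lengths stood higher in all genotypes, with the same order of the mutants. Those of up to 80 bases had unspliced shares of 2.33% in Col-0, 3.25% in xct-2 and 5.68% in prl1-2. Those above 120 and up to 300 bases had 2.81%, 3.39% and 5.63%, and those over 300 bases 3.83%, 4.78% and 8.16%. The ratio of prl1-2 to Col-0 was 2.44 for the shortest class, 2.26 for introns of 81 to 120 bases, 2.01 for those above 120 and up to 300 bases, and 2.13 above 300 bases, and the differences between these ratios were not tested.

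For 16450 of the introns every library had 20 or more reads in the upstream exon bin, so that single introns could be compared across libraries. The median unspliced share of these introns was 0.680% ± 0.0804 (SD, n = 3) in Col-0, against 2.87% ± 0.338 in prl1-2, 1.01% ± 0.0414 in xct-2 and 0.878% ± 0.0614 in xct-1. More than 5% of the reads lacked the junction at 9.20% of the introns in Col-0, and at 30.9% in prl1-2, 13.4% in xct-2 and 11.3% in xct-1. At a level of 25% the shares of introns were 1.33% in Col-0, 1.80% in xct-2 and 2.23% in prl1-2, so the genotypes differed most at low levels of unspliced reads.

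**Figure D3:**
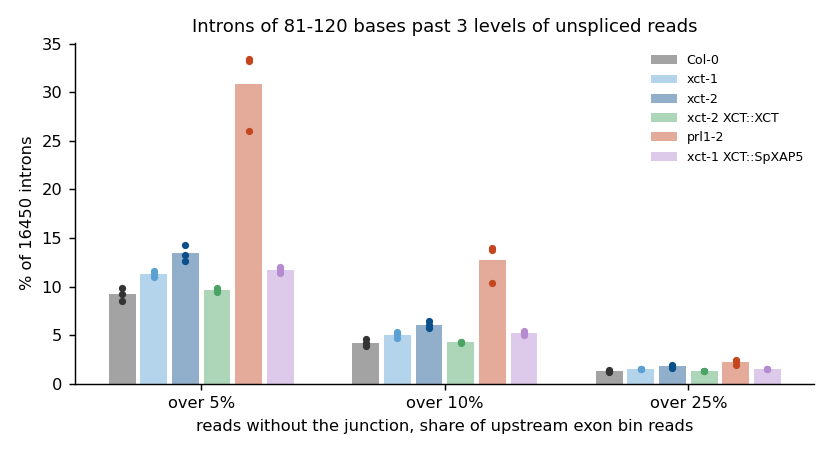
Share of 16450 introns (vertical axis, %) at which reads without the junction made up over 5%, 10% or 25% of the upstream exon bin reads, by genotype. Bars are means of 3 libraries and points are libraries. At the 5% level prl1-2 reaches 30.9% of introns against 9.20% in Col-0, and at 25% it is 2.23% against 1.33%.

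The shift in prl1-2 reached most of these introns by a small amount. The mean spliced percent was lower than in Col-0 at 14237 introns and higher at 1849. At 6627 introns, 40.3%, all 3 prl1-2 libraries lay below all 3 Col-0 libraries, beside 40.0% of all annotated junctions with the same coverage, and at 90 introns, 0.547%, they lay above, beside 0.746%. In xct-2, 1822 introns lay wholly below Col-0, 11.1% beside a background of 11.2%, and 386 wholly above, beside 2.71%. In xct-1, 1133 lay wholly below, 6.89% beside 7.14%, and 413 wholly above, beside 2.64%. The shares at introns of 81 to 120 bases were thus near those of annotated junctions as a whole.

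Intron retention could be read directly at 470 introns that an annotated exon bin covers exactly. These had 100 or more upstream exon bin reads summed over the 18 libraries. Over all 470 the median coverage of the intron, as a percent of upstream reads, was 5.88%, 5.26% and 8.57% in the Col-0 libraries and 20.0%, 14.3% and 17.3% in prl1-2, a ratio of the means of 2.62, while pooled over reads the ratio was 1.21. Over the 369 of them that were spliced in most reads, the median was 3.03%, 2.07% and 2.10% in the Col-0 libraries. It was 10.5%, 9.56% and 10.8% in prl1-2, above every other library, a ratio of 4.29, and the pooled ratio was 1.68. In xct-2 it was 3.23%, 3.73% and 2.27%, which overlapped Col-0. Mean coverage was higher in prl1-2 than in Col-0 at 385 of the 470 introns and lower at 72, while in xct-2 it was higher at 241 and lower at 187. In the tests below, introns with such a bin were called less often than the others. Against the upstream bin, 1.13% of the 353 tested fell in xct-2, beside 4.71% of the 14805 others. In prl1-2 the shares were 18.7% and 32.1%. The coverage values thus describe the 470 introns and not the whole class.

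Single introns were tested with edgeR's quasi-likelihood model on junction reads against the other reads of the gene, over all 18 libraries, and called when the Benjamini-Hochberg adjusted p over 50590 junctions was under 0.05. Of the 45764 introns, 20873 passed the filter of 20 reads on each side. The filter asks for 20 reads without the junction, so an intron that is fully spliced outside a mutant could be tested only through that mutant. With those 20 reads asked for outside the mutant, a choice made after seeing the data, 330 introns were called lower in xct-2, 96 in xct-1 and 1671 in prl1-2, in place of the 345, 96 and 2188 given below. The log2 values below are log2 odds ratios of usage with their standard errors.

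In xct-2, a limited set of introns lost usage of their annotated junction, while 6 gained. Usage fell at 345 introns of 310 genes, 1.65% of those tested, beside 1.50% lower among all junctions tested. It rose at 6, beside 1.02%, a background of 517 junctions of which 473 were unannotated. The median fall was 16.0 points of usage, 142 introns fell by over 20 points and 24 by over 50. Over all introns tested the median difference was −0.27 points, and −0.31 over all annotated junctions tested. Against the upstream exon bin, 701 of 15158 introns fell, 4.62% beside 4.03%, and 26 rose, beside 1.64%, which also includes unannotated junctions. Of the 345 introns, 335 could be tested that way and 324 were called.

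Among the introns with the largest falls, that of CPL2, a phosphatase-like protein of the RNA polymerase II C-terminal domain, lies on the minus strand of chromosome 5 from 108548 to 108635 (TAIR10). Its annotated junction was in 99 of 104, 60 of 64 and 123 of 126 gene reads in Col-0 and in 33 of 136, 25 of 78 and 39 of 145 in xct-2. Usage was thus 95.5% ± 1.96 and 27.7% ± 3.96, with no overlap (log2 −5.88, SE 0.51, adjusted p = 4.17e-08). The xct-1 and XCT::SpXAP5 libraries lay between these values, at means of 47.6% and 48.9%, and the XCT::XCT line was at 96.0%.

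The intron of AT4G33500, a gene with no symbol here, on chromosome 4 from 16113566 to 16113651, followed the same order. It was used in 284 of 289, 203 of 205 and 165 of 172 gene reads in Col-0 and in 30 of 115, 33 of 81 and 47 of 126 in xct-2. Its usage fell from 97.7% ± 1.61 to 34.7% ± 7.66 (log2 −6.42, SE 0.50, adjusted p = 7.04e-09), and it was 67.9% in xct-1, 61.5% in the XCT::SpXAP5 line and 96.7% in prl1-2.

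In PDF1B, a peptide deformylase that trims new organellar proteins, 22 of 22, 43 of 46 and 18 of 18 gene reads had the junction in Col-0 and 2 of 16, 11 of 27 and 1 of 5 in xct-2 (log2 −6.04, SE 0.97, adjusted p = 0.000246). In CDPMEK, a kinase of the plastid isoprenoid pathway, the counts were 18 of 18, 22 of 23 and 3 of 3 against 0 of 3, 4 of 13 and 0 of 1 (adjusted p = 0.000747). The CDPMEK transcript was thus seen in few reads in xct-2. AT1G52510 went from 92.9% ± 5.33 to 7.41% ± 12.8 (log2 −6.93, SE 0.89, adjusted p = 1.09e-05), and AT3G52030 from 84.6% to 11.1% on 35 and 21 gene reads (adjusted p = 0.00478), a call that was lost without xct-2 replicate 2.

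Other large falls concerned a receptor kinase, a metal transporter and a chromatin enzyme. CRK18, a cysteine-rich receptor-like kinase, had the annotated junction in 52 of 58, 20 of 23 and 20 of 23 gene reads in Col-0. In xct-2 it had the junction in 8 of 46, 7 of 41 and 5 of 41. Its usage fell from 87.9% ± 1.56 to 15.6% ± 2.91 (log2 −5.29, SE 0.56, adjusted p = 6.17e-07). YSL1, a transporter of metals bound to nicotianamine, fell from 94.6% ± 5.05 to 25.6% ± 9.51 (adjusted p = 0.000753). HDA15, a histone deacetylase, fell from 80.1% ± 2.48 to 16.9% ± 11.2 at the intron on chromosome 3 from 6363030 to 6363131 (log2 −4.16, SE 0.55, adjusted p = 1.70e-05). The HDA15 intron was used at 46.7% in xct-1 and 33.1% in the XCT::SpXAP5 line, and at 77.2% in the XCT::XCT line.

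Of the 6 rises, CTC1, a subunit of the telomere-protecting CST complex, was the best covered. Its intron on chromosome 4 from 6118400 to 6118501 was used in 56 of 86, 48 of 61 and 146 of 204 gene reads in Col-0 and in 152 of 167, 73 of 77 and 163 of 176 in xct-2, a rise from 71.8% ± 6.79 to 92.8% ± 1.90 (log2 2.30, SE 0.41, adjusted p = 0.000757). Both xct-1, at 89.4%, and the XCT::SpXAP5 line, at 90.1%, lay above Col-0, and the XCT::XCT line lay below it at 60.5%. The rises of EMB1290 (10.5% to 40.3%), of the haem O synthase COX10 (73.3% to 98.5%), of the unfolded protein sensor IRE1-1 (94.1% to 100%) and of JAC1 (94.6% to 99.8%), which acts in chloroplast movement, had adjusted p from 0.0160 to 0.0453. DESeq2 did not call these 4, and the IRE1-1 call was lost in 12 of 13 alternatives.

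DESeq2 called 230 introns in xct-2, the upstream bin 727, and a model with the junction reads per gene read of each library as a covariate 572 lower and 117 higher. Without Col-0 replicate 1, 224 were called, and without Col-0 replicate 3, 268 lower and 60 higher.

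Beside the annotated introns, 3′ splice sites that the annotation does not hold gained reads in xct-2. At 1043 of the introns, 1197 unannotated junctions shared exactly 1 splice site with the intron, 730 with another 3′ site and 467 with another 5′ site, and 1187 were tested. In xct-2, 235 of them rose, and each of these had a different 3′ site, beside 12.8% higher among all 3702 unannotated junctions tested. Of the 235, 233 lay downstream of the annotated site, and 179 lay 11 to 40 bases downstream. The median signed distance of the 235 was 17 bases, with quartiles of 12 and 25. Another 8 fell, beside 0.594%. The filter also asks for reads on the junction itself, so a junction hardly read outside a mutant could be tested only through that mutant. Median usage of the 235 was 0.0461% in Col-0 and 10.8% in xct-2. No count with junction reads asked for outside the mutant was made for unannotated junctions. How far the filter shaped the share and layout of these rises was thus not tested.

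The 487 unannotated 3′ sites that were tested and did not rise had another layout. Of these, 64.1% lay downstream, with a median signed distance of 3 bases, and 320 lay within 10 bases of the annotated site, against 36 of the 235 that rose. The distance was a multiple of 3, which would keep the reading frame, at 98 of the 235 (41.7%) and at 149 of the 487 (30.6%). This contrast was not tested, and the filter on junction reads chose both sets.

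**Figure D4:**
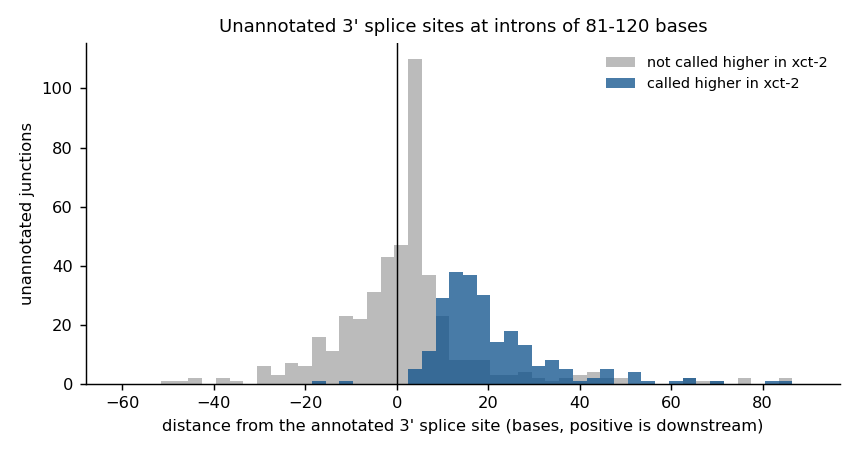
Number of unannotated junctions (vertical axis) by the distance in bases of their 3′ splice site from the annotated site of the intron, positive downstream. The 235 junctions called higher in xct-2 have a median of 17 bases, and the 487 that were not called higher have a median of 3 bases with a peak just downstream of the annotated site.

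Pooled, reads at unannotated 3′ sites were 0.165, 0.148 and 0.205 per 100 upstream exon bin reads in Col-0, which are the counts summed over these introns by library. In xct-2 they were 0.408, 0.282 and 0.413, above every Col-0 library, and in prl1-2 0.202, 0.155 and 0.194, within the Col-0 range. Reads at unannotated 5′ sites were 0.181 per 100 in Col-0, and 0.171 in prl1-2, 0.180 in xct-2 and 0.179 in xct-1.

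For 151 of the 345 introns that fell in xct-2, an unannotated junction at the same intron rose, and its gain was at the median 96.1% of the loss. For 191 no unannotated junction is listed. In CPL2 a site 21 bases downstream took 80 of 136, 38 of 78 and 75 of 145 gene reads in xct-2 and 0 of 294 in Col-0. This is 53.8% of the pooled reads and at least 52.7-fold higher than a floor of 3 reads in the pooled Col-0 libraries. In AT4G38120 a site 16 bases downstream took 93 of 172, 23 of 43 and 84 of 157 reads in xct-2 and 0 of 482 in Col-0, at least 86.4-fold higher by the same floor. Its annotated intron was used at 42.3% ± 1.75 in xct-2 and 98.3% ± 0.704 in Col-0 (log2 −6.27, SE 0.48, adjusted p = 5.24e-09).

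AT3G24180 used a site 15 bases downstream in 193 of 370, 80 of 145 and 239 of 420 gene reads in xct-2, and in 0 of 206, 0 of 158 and 2 of 399 in Col-0 (adjusted p = 5.95e-10). Sites 13 bases downstream rose in HDA15, from 0.457% to 77.5% ± 9.12, in AT1G52510, from 1.07% to 84.1%, and in AT4G33500, from 0.828% to 54.4%. The farthest of the 8 largest gains was in TOP3A, a DNA topoisomerase, where a site 45 bases downstream rose from 1.65% to 69.9% ± 3.46 while the annotated intron fell from 64.8% to 23.5% (adjusted p = 0.00181). In AT5G56850 a site 16 bases downstream rose from 2.33% to 69.8%, at an annotated intron used at 35.6% in Col-0 and 6.37% in xct-2. At each of these 8 junctions the xct-1 and XCT::SpXAP5 means lay between those of Col-0 and xct-2.

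In xct-1 fewer introns were called: 96 fell, of 91 genes, and 3 rose. The falls were 0.460% of the introns tested, beside 0.344% lower among all junctions, and rises had a background of 0.735%. Of the 372 junctions in that background of rises, 360 were unannotated. The median fall was 15.2 points, with 36 over 20 points and 3 over 50. Over all introns tested the median difference was −0.25 points, and −0.28 over all annotated junctions. Against the upstream exon bin 195 introns fell, 1.29% beside 1.10%, and 10 rose, beside 1.13%, a background that also includes unannotated junctions.

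EDD1, the organellar glycyl-tRNA synthetase, was well covered by reads. Its intron on chromosome 3 from 17764802 to 17764897 was used in 321 of 367, 228 of 264 and 468 of 559 gene reads in Col-0 and in 148 of 264, 48 of 102 and 132 of 261 in xct-1. Usage fell from 85.9% ± 1.92 to 51.2% ± 4.54 (log2 −2.52, SE 0.33, adjusted p = 4.47e-05), and it was 38.2% in xct-2 and 56.0% in the XCT::SpXAP5 line. The CPL2 intron was used in 65 of 116, 38 of 82 and 52 of 129 gene reads in xct-1 (log2 −4.62, SE 0.51, adjusted p = 4.68e-06), and AT5G57250 fell from 97.8% ± 1.96 to 62.8% ± 2.77 (adjusted p = 1.09e-05).

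The remaining named falls in xct-1 were those of AT1G52510 (92.9% to 23.8%), AT3G52030 (30 of 35 to 3 of 23 gene reads), AT1G18910 (90.0% to 55.9%), AT5G56850 (76.9% to 42.4%, at another intron than above), AT2G18850 (96.7% to 52.2%) and the transcription factor WRKY2 (95.8% to 58.2%). DESeq2 did not call AT2G18850 or WRKY2, and the AT3G52030 call was lost without xct-1 replicate 2 or Col-0 replicate 1 or 2. The rises were CTC1 (71.8% to 89.4%, adjusted p = 0.0367), AT3G17340 (88.5% to 98.8%, adjusted p = 0.000867) and the chromatin regulator EDM2 (91.6% to 99.2%, adjusted p = 0.0226), and of these only AT3G17340 was called by DESeq2. Unannotated junctions rose at these introns in 185 cases in xct-1, beside 9.72%, and 184 of them lay at a downstream 3′ site at a median of 19 bases, and 1 fell, beside 0.135%. At 71 of the 96 introns that fell, such a junction rose. In both alleles the comparison used the same Col-0 libraries.

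Over all introns, DESeq2 called 62 in xct-1, the upstream bin 205 and the covariate model 139 lower and 25 higher. A fit of only the xct-1 and Col-0 libraries called 36, leaving out Col-0 replicate 1 gave 59, and leaving out Col-0 replicate 3 gave 62 lower and 17 higher.

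In prl1-2, by contrast, many introns lost a little. Usage fell at 2188 introns of 1399 genes, 10.5% of those tested beside 9.56% of all junctions, and rose at 13, beside 0.180%. Of the 91 junctions in that background of rises, 48 were unannotated. The median fall was 7.80 points, 163 introns fell by over 20 points and 2 by over 50. The median difference over all introns tested was −2.46 points, and −2.81 over all annotated junctions tested. Against the upstream exon bin 4817 of 15158 introns fell, 31.8% beside 28.5%, and 20 rose, beside 0.316%. Of the 2188 introns, 1997 could be tested that way and 1983 were called.

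Genes with several such introns were also counted. Of 2784 genes with 3 or more of these introns tested, 588 had 1 intron that fell in prl1-2, 444 had 2 or more, and in 17 genes all fell. AGO1, the main microRNA effector, had 10 of 14. In xct-2, 222 of these genes had 1 intron that fell, 29 had 2 or more and none had all, with 4 of 13 in EDD1. Against the upstream bin, 34.0% of the introns of 81 to 90 bases tested fell in prl1-2 and 29.8% of those of 111 to 120 bases. The share called rose with junction reads, from 1.59% among the introns with the fewest to 39.8% among those with the most, so the power to call differed across introns.

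The largest single falls in prl1-2 were in thinly read genes. AT1G08610 was spliced at its intron on chromosome 1 from 2735635 to 2735715 in 19 of 22, 11 of 12 and 7 of 9 gene reads in Col-0 and in 4 of 10, 4 of 12 and 6 of 18 in prl1-2. Usage fell from 85.3% ± 7.01 to 35.6% ± 3.85 (log2 −3.41, SE 0.67, adjusted p = 0.00368), and xct-2 stood at 75.8%. AT2G20670 had 56 of 57, 15 of 15 and 38 of 40 gene reads spliced in Col-0 and 9 of 13, 13 of 25 and 6 of 21 in prl1-2 (log2 −5.13, SE 0.83, adjusted p = 0.000787), with 97.7% in xct-2. GATA5, a transcription factor, had 18 of 18, 21 of 22 and 9 of 9 against 5 of 15, 17 of 25 and 17 of 26 (adjusted p = 0.00688).

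The remaining named falls were AT5G55550 (75.3% to 30.7%), the lipid A-type deacetylase LpxC3 (33 of 42 to 1 of 9 gene reads), the alpha-galactosidase AGAL2 (98.4% to 47.2%), AT4G01460 (94.4% to 47.9%), the vesicle SNARE gene SGR4 (97.2% to 53.2%), AT3G07530 (88.9% to 48.2%) and the organellar seryl-tRNA synthetase SRS (92.4% to 52.2%). Of these 7, DESeq2 called AT5G55550.

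The 5 named rises in prl1-2 were AT4G38780 (17.0% to 83.3%, on 19 and 17 gene reads), NRPD1B, a largest subunit of a plant-specific RNA polymerase (66.5% to 95.3%), AT2G47960 (3.86% to 20.5%), NTMC2T5.2 (3.83% to 17.8%) and the transporter ZIFL1 (88.8% to 100%). The ZIFL1 call was lost in 8 of 12 alternatives and that of NTMC2T5.2 in 5 of 14. For AT4G38780 the spliced percent of the upstream bin was 100% in both genotypes, and for NRPD1B it was 99.2% in prl1-2 and 100% in Col-0. At both genes usage was thus higher with no rise in the spliced percent of reads next to the intron.

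Unannotated junctions at these introns rose in 10 cases in prl1-2, beside 1.3%, of which 7 had another 3′ site and 3 another 5′ site, and fell in 8, beside 1.16%. In XDH2, a xanthine dehydrogenase, a 3′ site 64 bases downstream was used in 45 of 97, 25 of 60 and 109 of 251 gene reads in Col-0 and in 78 of 103, 59 of 80 and 131 of 185 in prl1-2 (adjusted p = 0.00277). The annotated XDH2 intron fell from 53.7% to 17.7% (adjusted p = 0.000316), while in xct-2 it was used at 48.7%. In PAA2, which encodes a chloroplast copper-transporting ATPase, a site 7 bases upstream rose from 37.4% to 56.6%. The other gains were AT3G01380 at 44 bases downstream (8.61% to 24.3%) and the chloroplast protease DEG2 at 8 bases downstream (3.67% to 12.9%). The calls at the PAA2 and AT3G01380 sites were each lost in 5 of 15 alternatives. At 7 of the 2188 introns that fell, an unannotated junction rose.

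For prl1-2, DESeq2 called 542 introns, the upstream bin 4837, the covariate model 3724 and a fit of only the prl1-2 and Col-0 libraries 1222. Without Col-0 replicate 1 the count was 831, without prl1-2 replicate 1 it was 1166 and without prl1-2 replicate 3 it was 848.

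Set directly against xct-2, prl1-2 had lower usage at 1769 introns, beside 8.80% lower among all junctions, and higher usage at 235, beside 1.18%. Of the unannotated junctions at these introns 255 were lower, beside 14.4%, and 30 were higher, beside 2.16%. Against the upstream exon bin 3797 introns were lower, beside 24.3%, and 396 higher, beside 2.64%. The introns higher in prl1-2 included some whose usage had fallen in xct-2, such as CRK18 (15.6% in xct-2, 95.8% in prl1-2, adjusted p = 2.66e-08) and AT1G52510 (7.41% and 93.8%). Those lower in prl1-2 included AT2G20670 (97.7% and 49.9%, adjusted p = 0.000127), the transporter ABCG42 (81.2% and 26.0%), AAE14, an enzyme of phylloquinone synthesis (90.9% and 40.2%), and the heat shock factor HSFA1D (80.8% and 33.0%). Pooled over the 345 introns that fell in xct-2, usage was 84.6% in xct-2 and 93.8% in prl1-2, against 96.6% in Col-0. Over the 2188 that fell in prl1-2 it was 97.0% in xct-2 and 92.5% in prl1-2, against 98.0%. These sets were chosen in these libraries, so the values of the genotype that chose them are a description.

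The XCT::XCT transgene in xct-2 was compared with its parent and with Col-0. Against xct-2, 370 introns rose, 1.77% beside 1.53%, and 8 fell, beside 1.09%. Of the 553 junctions in that background of falls, 486 were unannotated. The rises included CRK18 (15.6% to 95.1%, adjusted p = 3.27e-08) and AT1G52510 (7.41% to 93.8%). The falls included CTC1 (92.8% to 60.5%, adjusted p = 1.19e-05) and the plastid acetyl-CoA carboxylase ACC2 (70.6% to 21.7%), for which the spliced percent of the upstream bin was 98.7% in xct-2 and 100% in the line. Against the upstream exon bin 668 rose, beside 3.96%, and 31 fell, beside 1.71%, a background that also includes unannotated junctions. The spliced percent of the upstream bin was higher in all 3 libraries of the line than in all 3 of xct-2 at 1737 introns, 10.6% beside 11.0%, and lower at 506, 3.08% beside 3.37%. Of the unannotated junctions at these introns, 247 fell in the line, beside 13.1%, and 11 rose, beside 0.702%. Against Col-0, edgeR called 0 introns lower and 0 higher, beside 0.00% and 0.00198%, and DESeq2 none, although the unadjusted p of 845 was under 0.05. The median difference of usage was 0.15 points. Neither the upstream bin, with a background of 0.00536% higher, nor the unannotated junctions, with 0.0270% higher, gave a call at these introns. The spliced percent of the upstream bin was lower in all 3 libraries of the line than in all 3 of Col-0 at 766 introns, 4.66% beside 4.84%, and higher at 471, 2.86% beside 3.01%. In the same comparison with Col-0, 39 introns were called with a filter of 1 read on each side, and 6 without Col-0 replicate 3.

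No intron was called between xct-1 with the XCT::SpXAP5 transgene and xct-1 itself. Here edgeR called 0 introns lower and 0 higher, beside 0.00% for either direction, and DESeq2 none; 1047 had an unadjusted p under 0.05. A filter of 1 read on each side gave 61, and the upstream bin 0. The spliced percent of the upstream bin was lower in all 3 libraries of the line than in all 3 of xct-1 at 730 introns, 4.44% beside 4.52%, and higher at 566, 3.44% beside 3.38%. The median difference of usage was 0.50 points, while the median of the spliced percent of the upstream bin differed by 0 over 16450 introns, so the size of the difference depended on the denominator. Over the 96 introns that fell in xct-1, pooled usage was 85.6% ± 1.53 (SD, n = 3) in xct-1, 86.6% ± 0.429 in the line and 96.5% ± 0.449 in Col-0.

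Introns of clock genes were counted because the series concerns the clock. Of 44 introns in 16 such genes, 26 were tested, and 2 fell in xct-2, 1 in xct-1 and 2 in prl1-2, with none higher, beside 1.50%, 0.344% and 9.56% lower among all junctions tested. TOC1, the evening repressor of the clock, was called in each of the 3 mutants, at the intron on chromosome 5 from 24676740 to 24676823. Its usage in TOC1 gene reads was 85.8%, 90.5% and 84.4% in the Col-0 libraries. It was used in 99 of 150, 58 of 103 and 97 of 143 in xct-2, in 85 of 123, 63 of 89 and 69 of 104 in xct-1, and in 35 of 54, 58 of 83 and 48 of 66 in prl1-2. The libraries of each mutant lay below all 3 of Col-0. Mean TOC1 usage was 86.9% ± 3.21 in Col-0 and 63.4% ± 6.19 in xct-2 (log2 −1.89, SE 0.37, adjusted p = 0.00273). It was 68.7% ± 2.24 in xct-1 (log2 −1.56, SE 0.38, adjusted p = 0.0397). That call was lost in 11 of 15 alternatives, among them DESeq2 and leaving out any single library of either group. In prl1-2 TOC1 usage was 69.1% ± 4.01 (log2 −1.53, SE 0.40, adjusted p = 0.0178), a call lost in 4 of 15 alternatives. The 3 contrasts share the Col-0 libraries.

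CCA1, a morning transcription factor of the clock, fell in xct-2 at the intron on chromosome 2 from 19245873 to 19245956. It was used in 134 of 137, 94 of 97 and 70 of 73 gene reads in Col-0 and in 114 of 134, 98 of 117 and 104 of 131 in xct-2, or 96.9% ± 0.960 and 82.7% ± 2.98 with no overlap (log2 −2.71, SE 0.50, adjusted p = 0.00136). Usage of the CCA1 intron was 94.3% in xct-1 and 92.0% in prl1-2. PRR7, another clock repressor, fell in prl1-2 from 98.1% to 92.3% (adjusted p = 0.0363), a call lost in 6 of 15 alternatives, with an adjusted p of up to 0.158.

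**Figure D5:**
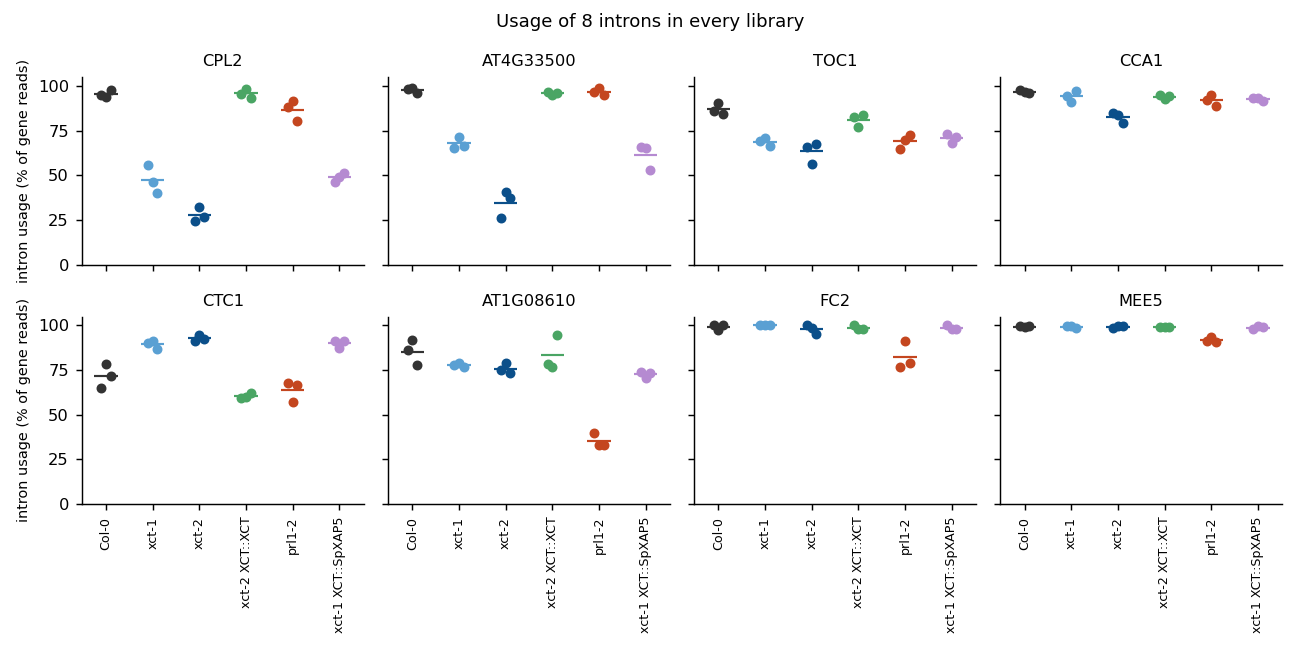
Usage of 8 introns, as a percent of gene reads, in each of the 18 libraries. Points are libraries and short lines are means of 3. CPL2 and AT4G33500 are lowest in xct-2, at 27.7% and 34.7%, with xct-1 and the XCT::SpXAP5 line between xct-2 and Col-0; AT1G08610, FC2 and MEE5 are lowest in prl1-2; CTC1 is higher in xct-2, xct-1 and the XCT::SpXAP5 line than in Col-0.

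Genes of the splicing machinery itself were counted in the same way. Of 101 introns tested in genes of the spliceosome and the Prp19-type complex, 3 fell in prl1-2, beside 9.56% of all junctions tested, and in xct-2 and xct-1 the introns that fell, 2 and 1, were those of XCT. Against the upstream bin 13 of 70 fell in prl1-2, beside 28.5%, 3 in xct-2 and 2 in xct-1. In MEE5, which encodes the GTPase of the U5 snRNP, the intron was used in 338 of 340, 259 of 262 and 369 of 370 gene reads in Col-0 and in 317 of 347, 342 of 366 and 366 of 403 in prl1-2 (log2 −3.73, SE 0.60, adjusted p = 0.000837). The others were AT1G28060, a PRP3-like factor (99.3% to 91.6%), and RS31, which was counted in this group and the next. The AT1G28060 call was lost in 3 of 8 alternatives.

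Of 33 introns tested in SR proteins and splicing regulators, 8 fell in prl1-2, 0 in xct-2 and 0 in xct-1 with edgeR, beside 9.56%, 1.50% and 0.344% of all junctions tested. FC2, a kinase that phosphorylates SR proteins, had 57 of 57, 41 of 42 and 43 of 43 gene reads spliced in Col-0 and 43 of 56, 52 of 57 and 116 of 147 in prl1-2 (log2 −4.50, SE 0.98, adjusted p = 0.00747). The SR protein RS31 fell from 99.4% to 86.6% (adjusted p = 0.0498), the SR-like protein SR45 from 98.4% to 88.8% (adjusted p = 0.0114), and PTB2, a polypyrimidine tract-binding protein, from 95.2% to 76.3% (adjusted p = 0.0399). Alternatives lost the call of RS31 in 4 of 9, of SR45 in 2 of 14 and of PTB2 in 3 of 9. Against the upstream bin, 10 of 22 introns of these genes fell in prl1-2, beside 28.5%, and 2 in xct-2, beside 4.03%.

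Photosynthesis genes had 33 introns tested, of which 6 fell in prl1-2, 1 in xct-2 and 0 in xct-1, beside 9.56%, 1.50% and 0.344% of all junctions tested. LHCA4, a light-harvesting protein of photosystem I, fell in prl1-2 from 98.9% ± 0.478 to 94.5% ± 0.169 (adjusted p = 0.00691), LHCB4.2, an antenna protein of photosystem II, from 98.7% to 92.4%, and RCA, Rubisco activase, from 98.3% to 95.5%. The LHCB4.2 call was lost in 6 of 14 alternatives and that of RCA in 4 of 15. LHCB3, another antenna protein, fell in xct-2 from 96.4% ± 0.584 to 90.0% ± 5.94 (adjusted p = 0.0429), a call that DESeq2 did not make and that was lost without xct-2 replicate 2.

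Of 77 introns tested in proteasome genes, 3 fell in xct-2, 2 in xct-1 and 12 in prl1-2, beside 1.50%, 0.344% and 9.56% of all junctions tested. The choice by symbol also took in genes of other roles, among them PAB4 and PAB8, poly(A)-binding proteins, PAA2, and RPT2, here ROOT PHOTOTROPISM 2, a phototropin signalling protein. RPN1B, a non-ATPase subunit of the proteasome's regulatory particle, fell from 98.3% ± 2.10 in Col-0 to 73.1% ± 5.60 in xct-2 (log2 −4.38, SE 0.67, adjusted p = 0.000125) and to 83.8% ± 5.11 in xct-1 (adjusted p = 0.00700), with 98.5% in prl1-2. PAB4 fell from 99.7% to 96.7% in xct-2 and PAA2, at another intron than above, from 97.7% to 88.2%. In prl1-2 the proteasome ATPase subunit RPT6A fell from 99.8% to 87.0% (adjusted p = 0.00101), RPT2 from 93.0% to 82.8% (adjusted p = 0.0310, a call lost in 6 of 15 alternatives) and PAB8 from 98.9% to 90.8%.

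Translation initiation factors had 36 introns tested, with 1 fall in xct-2, 0 in xct-1 and 5 in prl1-2, beside 1.50%, 0.344% and 9.56% of all junctions tested. EIF3A, a core subunit of eIF3, fell from 97.8% ± 0.556 to 91.7% ± 1.67 in xct-2 (log2 −2.03, SE 0.36, adjusted p = 0.000680). Another intron of the same gene fell in prl1-2 from 98.6% to 95.5%, and TIF3B1 and EIF3B-2, both eIF3 B subunits, fell from 94.9% to 85.2% and from 98.8% to 89.6%. The EIF3A call in prl1-2 was lost in 6 of 15 alternatives and that of EIF3B-2 in 5 of 13. None of 19 introns of ribosomal protein genes tested with edgeR was called in any of the 3 mutants; in prl1-2, 1 of the 6 that could be tested against the upstream bin fell and 1 rose.

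Exocyst and secretion genes had 61 introns tested, of which 9 fell in prl1-2, beside 9.56% of all junctions tested, and 0 in xct-2 and xct-1, beside 1.50% and 0.344%. EXO84B, a subunit of the vesicle-tethering exocyst, had 181 of 181, 148 of 148 and 207 of 207 gene reads spliced in Col-0 and 88 of 99, 104 of 113 and 145 of 161 in prl1-2 (adjusted p = 0.000909). EXO70A1 fell from 90.8% to 72.5%, SEC8 from 95.9% to 90.6% and SEC5A from 99.1% to 96.2%. The SEC8 call was lost in 5 of 15 alternatives and that of SEC5A in 4 of 15. For the 8 gene groups, the median log2 difference between prl1-2 and Col-0 ran from −1.50 in the SR and splicing regulator genes to −0.09 in the ribosomal protein genes, and it was −0.92 over all introns of 81 to 120 bases tested and −0.81 over all junctions tested.

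The 3 most-read introns all belong to GUN5, the H subunit of magnesium chelatase in chlorophyll synthesis. The intron on chromosome 5 from 4388509 to 4388597 was used in 7605 of 7665, 5273 of 5314 and 15461 of 15579 gene reads in Col-0 and in 4615 of 4714, 4197 of 4289 and 7511 of 7685 in prl1-2, a fall from 99.2% ± 0.0127 to 97.8% ± 0.0848 (log2 −1.51, SE 0.28, adjusted p = 0.00226). In xct-2 it was 98.9% ± 0.393, which was not called (adjusted p = 0.714). The other GUN5 introns had 97.1% and 96.8% in Col-0 and 96.4% and 96.2% in prl1-2 and were not called (adjusted p = 0.478 and 0.572), though both fell against the upstream bin (adjusted p = 2.37e-05 and 0.00476).

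XCT itself holds introns whose annotated junction had no reads in one or other allele. A gene read without the junction may retain the intron, use another site or not reach the intron. Introns 2 and 3 of the gene's constitutive introns, on chromosome 2 from 9065899 to 9065983 and from 9066049 to 9066135, had 0 of 16 gene reads in the xct-2 libraries together and 24 and 26 of 26 in Col-0. Intron 7, from 9067108 to 9067195, had 0 of 89 reads in xct-1 and 0 of 17 in the XCT::SpXAP5 line, against 26 of 26 in Col-0 (adjusted p = 1.56e-05 for xct-1), and 13 of 16 in xct-2. In the XCT::XCT line introns 2 and 3 had 1201 and 1220 of 1272 reads, and reads of the transgene cannot be told apart from those of the gene.

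In the authors' deposited tables, which test each feature of a gene, 403 of the introns described here were lower and 13 higher in xct-2 among 35003 listed with an adjusted p, or 1.19% called beside 1.03% of all features listed. In the authors' deposited tables, 106 of 34962 were lower and 4 higher in xct-1, 0.315% beside 0.4%, and 2723 of 22167 lower and 3 higher in prl1-2, 12.3% beside 6.48%. The authors' deposited tables had 5 of 36822 lower and 0 higher in the XCT::XCT line against Col-0, 0.0136% beside 0.0143%, and 0 of 21628 in either direction for XCT::SpXAP5 against xct-1, beside 0.00333%. All features listed include exon bins as well as junctions.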

How the data were processed

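Whole seedlings of 6 genotypes, 3 libraries each, were measured by PacBio Iso-Seq. The authors deposited, for each library, whole-number read counts per gene, exon bin, annotated junction and unannotated junction. The build TAIR10 and minimap2 2.17 are listed per the submitters' processing notes; the counting program and its annotation release were not given in the sources used here. Comparison tables were also deposited by the authors, with a p-value, an adjusted p-value and a log2 ratio per feature; the table for the XCT::SpXAP5 line is coded xct-1 over the line, and its sign was turned. Coordinates are TAIR10, counted from 1, and symbols come from RefSeq (assembly TAIR10.1), which matched 99.96% of the introns.

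From the deposited counts, 2 values per junction and library were taken, the junction reads and the other reads of the gene, floored at 0. They were fitted with edgeR 4.0.16 (R 4.3.3) by the quasi-likelihood test, with 1 term for each library and another for usage in each genotype, over all 18 libraries and the junctions of single-gene loci with 20 or more reads on each side. Benjamini-Hochberg adjustment ran over all 50590 junctions, and calls were made under 0.05. A second fit over 37337 junctions used the upstream exon bin. The steps were tested on simulated data. Alternatives were DESeq2 1.42.0, other read minima, both denominators, a covariate, a replicate block, fits of 6 libraries and leaving out each library; values were summed with Python 3.11.15 and pandas 2.3.3.

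Named introns were, per comparison, those called with no overlap between 3 and 3 libraries, 1 per gene, up to 10 falls and 5 rises by difference in mean usage, with up to 8 unannotated rises in xct-2 and 4 in prl1-2, up to 4 called introns per gene list, the 3 most-read introns and the XCT introns; not all are printed for the last 2 comparisons. The 8 lists were clock, spliceosome and Prp19-type complex, SR and splicing regulators, photosynthesis, ribosomal proteins, proteasome, translation initiation factors, and exocyst and secretion. The introns and lists were chosen with earlier results of these data known. A count of reads has counting error, and genes of few reads give wide ranges.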

Additional observations from a re-analysis of the deposited data

Results flagged for a closer look

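Usage at introns of 81 to 120 bases differed directly between prl1-2 and xct-2, by the test of that difference over all 18 libraries: 1769 introns were lower and 235 higher in prl1-2 (edgeR, adjusted p under 0.05). These were 8.48% and 1.13% of the introns tested, near the 8.80% and 1.18% of all junctions tested.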

How the results depend on the processing

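None of the 123 called results named changed direction under an alternative run. The unannotated junctions called in prl1-2, 8 lower and 10 higher, were 6 and 3 without Col-0 replicate 1 and 3 and 3 without prl1-2 replicate 3. DESeq2 called 230 introns in xct-2, 62 in xct-1, 542 in prl1-2 and 709 between prl1-2 and xct-2, where edgeR called 351, 99, 2201 and 2004 in both directions together. The upstream exon bin gave 727, 205, 4837 and 4193, and 699 between the XCT::XCT line and xct-2, where edgeR called 378. The covariate of junction reads per gene read gave 689, 164, 3724 and 3169, 605 for the line against xct-2 and 7 for the line against Col-0, where none was called. Fits of only the 6 libraries compared gave 199 in xct-2, 36 in xct-1 and 1222 in prl1-2, and 109 unannotated junctions in xct-1. A filter of 1 read on each side gave 39 for the line against Col-0 and 61 for the XCT::SpXAP5 line. For the 18 unannotated junctions called in prl1-2, DESeq2 gave 4, the upstream bin 30, the covariate 38 and the 6 libraries 9. The causes were not tested.

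Leaving out 1 library at a time gave 224 to 328 introns in xct-2, 59 to 94 in xct-1, 831 to 1842 in prl1-2, 0 to 6 for the XCT::XCT line against Col-0, 256 to 306 against xct-2, 0 for the XCT::SpXAP5 line and 823 to 1733 between prl1-2 and xct-2, the last at 823 without prl1-2 replicate 3, 910 without xct-2 replicate 3, 1051 without xct-2 replicate 1 and 1172 without prl1-2 replicate 1. For unannotated junctions the ranges were 226 to 238 in xct-2, 135 to 179 in xct-1 and 6 to 16 in prl1-2, with 9 without Col-0 replicate 1 or prl1-2 replicate 1 and 6 without prl1-2 replicate 3. Whether the replicate numbers pair the samples could not be settled: 9 of 18 libraries correlated best with their own number. Between libraries of the same number, correlations of usage ran from −0.137 to 0.186 for number 1. They ran from −0.399 to 0.634 for number 2 and from −0.155 to 0.653 for number 3. The replicate block gave 339 lower and 9 higher in xct-2, 87 and 2 in xct-1, and 2173 and 20 in prl1-2.

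Pooled usage depended on its denominator. Against the upstream bin it came to 98.0% in Col-0 and the XCT::XCT line, 97.7% in xct-1 and the XCT::SpXAP5 line, 97.4% in xct-2 and 95.6% in prl1-2. As a median over introns it was 99.4% and 99.3%, 98.9% and 99.7%, 98.6%, and 95.7%, in the same order. In genes with 200 or more reads it was 95.7% in the XCT::XCT line, 93.9% in prl1-2 and 95.8% in the XCT::SpXAP5 line. Leaving out 1 library gave 95.1% to 95.7% in Col-0, 94.7% to 95.2% in xct-2, 95.0% to 95.3% in xct-1, 95.3% to 95.6% in the XCT::XCT line, 92.9% to 93.5% in prl1-2 and 95.3% to 95.5% in the XCT::SpXAP5 line. Of 1755 alternatives for 123 called results named, 1446 kept the call and 309 lost it, and 56 results were called under every one. The test covered 20873 of 45764 introns, those with 20 reads on each side. All had 20 or more junction reads by choice, so the introns left out had too few reads without the junction. Few gene reads and nearly complete splicing can each lead to that, and which applied was not tested.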
